A study of Mus musculus with 14 samples.

Results

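The first day of the transcript response of wounded fibroblasts to autologous micrograft (AMG) was followed here within the treated cells, by comparing 4 libraries of AMG-treated cells taken at 1, 5, 12 and 24 h with each other. AMG is the soluble extract of minced mouse skin, and it was diluted 1:10 in growth medium. The cells were primary fibroblasts from the tail of C57BL/6 mice, grown in serum-containing medium, scratched as an in vitro wound model and then given AMG, so every group, the untreated one included, carried the scratch and the serum. The labels give no age, sex or number of the animals behind a culture. All 4 libraries belonged to replicate 1, of which there was 1 AMG-treated and 1 Untreated library at each of the 4 times, and the series held 14 libraries in all, with 3 further replicates of each group at 5 h only. The labels do not say whether the 4 treated libraries came from 1 culture or from several, so differences between times and between cultures cannot be told apart.

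Genes were taken up when their mean normalised count over the 4 treated libraries was at least 10. This held for 13457 of the 43472 genes listed. The gene just inside this limit had a mean of 10.0090 and the gene just outside it a mean of 9.9953. Each gene had 1 value per time, so there was no test and no p-value, and the words higher and lower describe these libraries only. Differences are on the scale of log2(normalised count + 1), which understates the difference of genes with low counts, and a gene was counted as different when this exceeded 1, or 2-fold. Where 4 values of a gene are listed, they are normalised counts at 1, 5, 12 and 24 h in that order.

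As background, fibroblasts answer an injury and the growth factors in a tissue extract in waves. Immediate early genes are transcribed from factors already in the cell, without new protein synthesis, and encode transcription factors of the Fos, Egr and Nr4a families together with the feedback proteins that switch the response off. Signalling through NF-kB gives chemokines and cytokines with similar speed. Later genes depend on proteins made in between, and include matrix metalloproteinases, which cut extracellular matrix, and secreted acute phase proteins. Type I interferon acts through the factors STAT and IRF on genes with an interferon-stimulated response element (ISRE).

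The 4 treated libraries held 13889352 to 27410213 reads assigned to genes, the fewest at 1 h and the most at 5 h, and 16780 to 18718 genes with at least 1 read. A floor of 3 reads corresponded to 5.22 normalised counts at 1 h and to 2.32 to 2.86 at the later times. The 1 h library was rich in ribosomal protein reads. The 88 ribosomal protein genes took 5.10% of its reads, against 3.24%, 2.55% and 3.13% at 5, 12 and 24 h. In the untreated course it was the 5 h library that stood apart, with 7.003% against 2.31% to 2.87% at the other times. All 9 fibroblast markers were among the genes taken up, with a summed level of 217865 to 313609 normalised counts. Among markers of other cells, 3 of 8 keratinocyte genes were taken up (summed level over the list 270.02 to 434.7) and Krt5 and Krt1 were at 0. For skeletal muscle it was 3 of 8 genes (297.9 to 1702), with Myh2 and Myh4 at 0. Leukocyte markers numbered 6 of 7 listed (396.9 to 1248), adipocyte markers 1 of 5 (371.7 to 1208) and endothelial markers 2 of 4 (32.5 to 59.1), while none of the 5 red blood cell markers was taken up. The summed levels of the muscle, leukocyte and keratinocyte lists were highest at 1 h and lowest at 24 h, and their part in the results was not tested. In bulk samples such as these, fewer cells of a type and less RNA per cell cannot be told apart.

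The largest difference between neighbouring times was from 1 to 5 h. At 5 h 1542 genes were higher than at 1 h (11.5%) and 1382 were lower (10.3%). From 5 to 12 h, 1023 genes were higher (7.6%) and 1063 lower (7.9%). From 12 to 24 h, 385 were higher (2.86%) and 504 lower (3.75%). Over the whole course, 2159 genes were higher at 24 h than at 1 h (16.0%) and 2251 were lower (16.7%). The balance of higher and lower genes depended on the scaling, and with TMM factors it was 2445 higher and 2008 lower from 1 to 24 h and 1727 and 1180 from 1 to 5 h. Untreated cells over the same times gave 2083 higher and 2275 lower genes from 1 to 5 h, 1906 and 1950 from 5 to 12 h, and 366 and 298 from 12 to 24 h, but 912 and 1049 from 1 to 24 h. Of the treated genes higher at 5 h than at 1 h, 150 were also higher in untreated cells, which was 9.73% of the treated and 7.20% of the untreated genes.

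Replicate error could be measured only at 5 h, where AMG-treated replicates 2, 3 and 4 were scaled together in a second table. Replicates 2 and 4 were more than 1 apart on the log2 scale in 7.86% of 13116 genes, replicates 3 and 4 in 17.5% and replicates 2 and 3 in 18.1%. Libraries of replicate 1 taken 1 and 12 h after AMG were this far apart in 34.3% of genes and those of 1 and 24 h in 32.8%, more than any pair of 5 h replicates. The 1 h and 5 h libraries differed in 21.7%. The pairs 5 and 12 h (15.5%) and 5 and 24 h (18.5%) fell within or close to the range of the replicates, and 12 and 24 h (6.61%) below it. Differences between the 3 later libraries were thus no more frequent, or only slightly more, than those between replicates of 1 time.

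**Figure D1:**
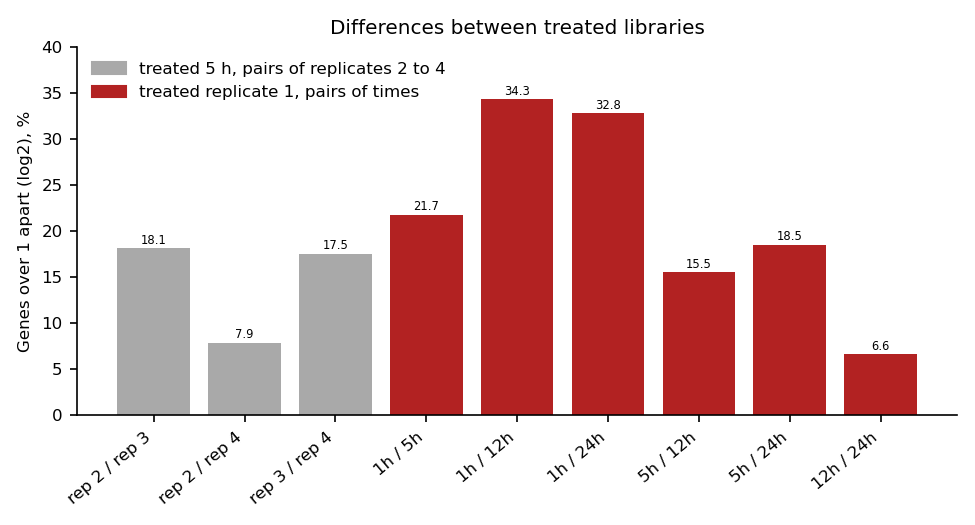
Share of genes (vertical axis, %) that were more than 1 apart on the scale of log2(normalised count + 1) between 2 AMG-treated libraries. Grey bars are pairs of replicates 2 to 4 at 5 h (7.9% to 18.1%) and red bars are pairs of times of replicate 1, of which the pairs with 1 h reach 21.7% to 34.3%.

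A gene was assigned to the wave of the time at which it was highest if its highest and lowest values were more than 1 apart on the log2 scale. This was so for 6757 genes (50.2%). The wave highest at 1 h held 2664 genes (19.8%), the wave at 5 h 1199 (8.91%), the wave at 12 h 1451 (10.8%) and the wave at 24 h 1443 (10.7%). Far fewer genes stood more than 1 above their next highest time, namely 732, 153, 107 and 81 in the 4 waves. Of 6184 wave genes that also had a mean of at least 10 in the second table, 5303 (85.8%) had a larger range over the 4 times than over the 3 replicates at 5 h. A range over 4 values tends to exceed one over 3, and wave genes were chosen for a wide range over time, so this share is only a rough guide. The same counts given below for single lists are descriptions, to be read beside this 85.8%.

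The orders of the 4 levels were diverse. The most frequent, with 1318 genes, fell to its lowest at 12 h and was higher again at 24 h, and 1111 genes showed the reverse, with the highest level at 12 h after 2 upward steps. At every step 829 genes were lower and 723 were higher. Genes of the 1 h wave encoded short transcripts, with a median length of 2277 nt against 3364 nt for all 12806 genes of known length, and the medians of the later waves were 3636, 4376.5 and 3674 nt. All 70 ribosomal protein genes with a wave belonged to 1 h. Transcript length was also set against the signed log2 difference from 1 to 5 h over 12806 genes, which share their libraries. The Spearman correlation was 0.30 in treated cells, where longer transcripts tended to be higher at 5 h relative to shorter ones. It was -0.58 in untreated cells, where longer transcripts tended to be lower at 5 h relative to shorter ones. With the median difference of genes of like length removed, the 1 h wave held 2274 genes, and 1859 of its 2664 genes stayed in it. The part of library composition in the remaining genes was not tested.

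In untreated cells many wave genes were highest at another time, and the part of library composition in this was not tested. Of the 2664 genes of the treated 1 h wave, 639 (24.0%) were highest at 1 h in untreated cells as well and 1583 were highest at 5 h there, in the untreated library rich in ribosomal protein reads. The share highest at the same time without AMG was 29.6% for the 5 h wave, 29.4% for the 12 h wave and 53.6% for the 24 h wave. Over all 13457 genes, 26.1%, 36.1%, 12.8% and 25.0% were highest at 1, 5, 12 and 24 h in untreated cells. The shares of the 12 h and 24 h waves were above these background shares, that of the 1 h wave was close to its own and that of the 5 h wave was below it. Among genes more than 1 ahead of their next highest time the shares were 28.4%, 35.9%, 18.7% and 54.3% for the 4 waves, so the 5 h wave was then at its background share.

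**Figure D2:**
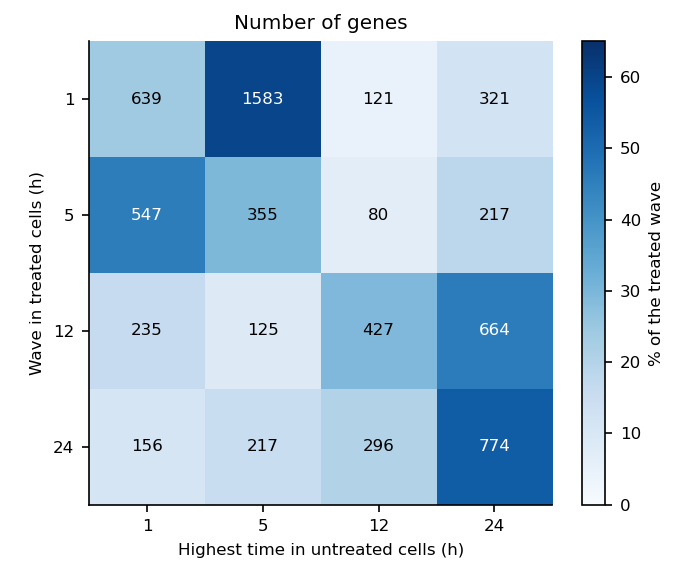
Number of genes in each AMG-treated wave (rows, time in h) by the time at which the same genes were highest in untreated cells (columns, h), with colour for the share of the treated wave in %. Of the treated 1 h wave, 1583 genes sit in the untreated 5 h column, and of the treated 24 h wave 774 genes sit in the untreated 24 h column.

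The 8 named genes furthest ahead at 1 h were Egr4, Tnfaip6, Csf2, Egr2, Sele, Tnf, Nr4a1 and Fosb. Egr4 and Egr2 are zinc finger transcription factors, Nr4a1 is an orphan nuclear receptor and Fosb a subunit of AP-1. Nr4a1 (chromosome 15, 101254269 to 101274795, plus strand, GRCm38) was at 22307, 1422, 1456 and 1582 normalised counts. It was therefore 15.7-fold higher at 1 h than at 5 h, and stayed level afterwards. Egr4 was at 454, 14.7, 7.62 and 0, at least 168-fold higher at 1 h than at 24 h, where no read was found. Tnfaip6, a secreted protein that binds hyaluronan, was at 1810.1, 61.9, 11.4 and 37.8. Untreated cells also had their highest level of these 3 genes at 1 h, but a lower one, with 7479, 100.2 and 644 normalised counts. Csf2, which encodes the growth factor GM-CSF, behaved differently. It was at 628, 12.4, 17.2 and 23.4 with AMG and at 0, 0, 0.732 and 0 in untreated cells. The adhesion molecule Sele, or E-selectin, had 3778, 206, 79.1 and 61.2 with AMG and at most 19.0 without. The SD of log2 values over the 3 treated 5 h replicates was 1.29 for Nr4a1, 1.22 for Tnfaip6, 2.19 for Csf2 and 0.73 for Sele, against a distance from 1 h to the next highest time of 3.82, 4.85, 4.69 and 4.19. As these genes were chosen for that distance, this is a description.

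**Figure D3:**
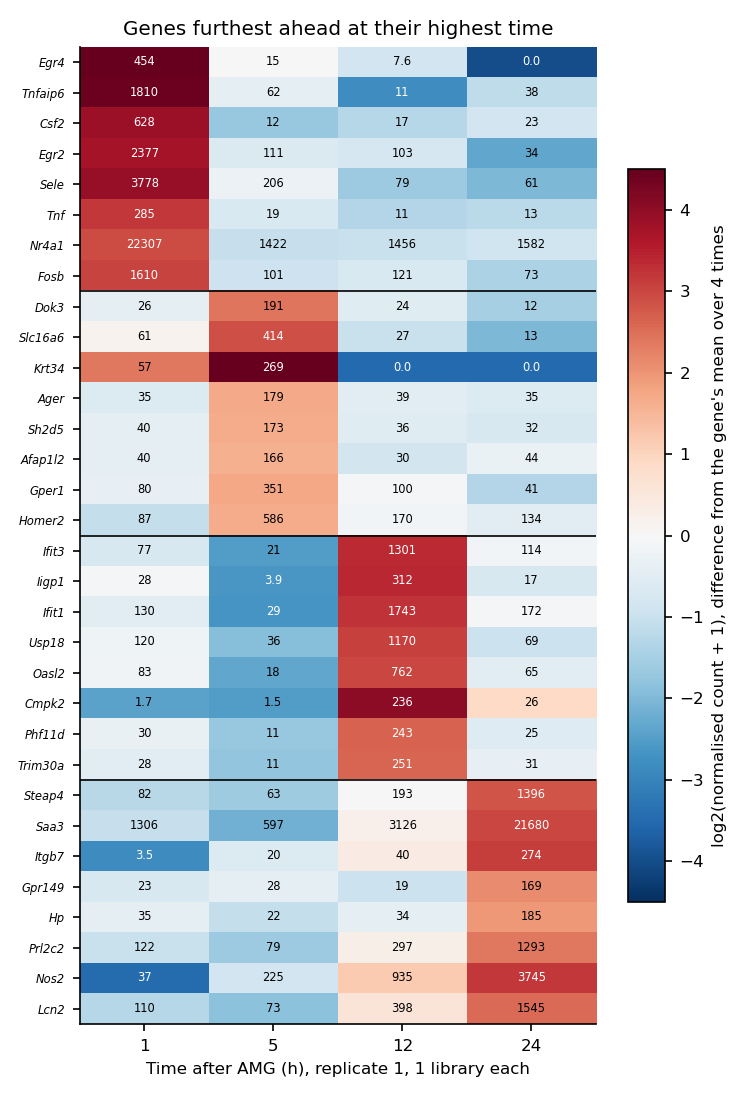
The 8 genes per wave with the largest lead of the highest over the next highest time, in AMG-treated replicate 1 (columns, h). Numbers are normalised counts and colours the difference of log2(normalised count + 1) from the gene's mean over the 4 times, with black lines between the waves. The 8 lowest rows, from Steap4 to Lcn2, are highest at 24 h.

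Immediate early transcription factors moved together. Of 21 listed genes, all of them measured, 19 were in the 1 h wave, which held 19.8% of all genes, and 15 were lower by more than 1 at 5 h. The list's median difference was -2.13 from 1 to 5 h and -2.18 from 1 to 24 h, against -0.01 and 0.01 over all genes. In untreated cells these medians were -0.97 and -0.95, with 12 genes in the 1 h wave. Junb, a partner of Fos proteins in AP-1, was at 26491, 2499.6, 1938 and 2631. Fos itself was at 457, 104, 56.2 and 112 and Egr1, the best known Egr factor, at 6234, 2921, 575 and 640.0. Egr1 differed from Junb in the speed of its decline, with 2921 still present at 5 h. Atf3, Nr4a3 and Csrnp1, all transcription factors induced by stress or growth factors, led their next highest time by 3.40, 2.98 and 3.51 on the log2 scale. Jun was an exception, with 4500.1, 6524, 4908 and 4358 and its highest level at 5 h, and Srf, the factor that recruits Fos and Egr gene transcription, was at 2398, 2575, 1022 and 1359. All 20 wave genes of the list had a larger range over time than over the 5 h replicates, and the SD of the list median over those replicates was 0.08.

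Srf protein binds the CArG box, a core of 6 A or T bases between CC and GG, and the promoters of Egr2 and of Srf itself held a copy. In promoter windows from 250 bases before to 50 after the start of each gene (RefSeq, GRCm38.p6, both strands searched), a CArG box was found in 1.63% of all 32851 promoters. It was in 3.62% of the promoters of the 1 h wave with a range over 2 and in 5 of the 25 promoters of the immediate early list, which belonged to 2 genes, and in 28.6% of 14 contractile promoters. The windows of Egr4, Fos, Fosb, Nr4a1 and Junb did not hold it. The sequences end before the start site, run 5′ to 3′ on the gene's strand and have the box in capitals. They show the upstream promoter of Egr2 (chr10:67537474-67537523, plus strand), another Egr2 promoter (chr10:67537777-67537826, plus strand) and Srf with a pair of boxes (chr17:46556215-46556264, minus strand).
Egr2 upstream: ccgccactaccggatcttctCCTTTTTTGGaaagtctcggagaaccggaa
Egr2 downstream: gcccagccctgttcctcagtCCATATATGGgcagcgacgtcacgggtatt
Srf: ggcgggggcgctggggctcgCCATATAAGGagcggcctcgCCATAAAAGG

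Most genes downstream of NF-kB were also highest at 1 h. Of 19 listed feedback and target genes 12 were in the 1 h wave, 1 in the 5 h wave and 1 in the 24 h wave, and the median difference from 1 to 24 h was -1.16. Tnfaip3, which encodes the deubiquitinase A20 that shuts NF-kB off, was at 11398, 1872, 456 and 652, and Nfkbia, the inhibitor that keeps NF-kB in the cytoplasm, at 15590.3, 6101, 3043 and 4319. All 4 treated values of both genes were above all 4 untreated ones, which reached 265 and 890.0. Icam1, an adhesion molecule for leukocytes, was at 3438, 1705, 612 and 676. Among wave genes of the list, 11 of 14 had a larger range over time than over the 5 h replicates, against 85.8% of all wave genes. The SD of the list median over those replicates was 0.81, as large as the list's median difference of -0.75 from 1 to 5 h.

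The Cxcl chemokines that attract neutrophils, listed here together with Ccl20, split into an early and a sustained pattern. Cxcl2 was at 18284, 1887, 1279.9 and 947, a decline at every step, and Cxcl1 at 43677, 7549, 14002 and 16852, lowest at 5 h. Cxcl3 and Ccl20 kept nearly their 1 h level to 5 h, with 1555, 1368, 741 and 944 and 2815, 2693, 1221 and 1046. Cxcl5 was the only one of the 5 listed genes that was highest at 24 h, with 24463, 20487, 41967 and 61755. All were higher with AMG than without at every time. Untreated values reached 675 for Cxcl1, 14.9 for Cxcl2, 101 for Cxcl3, 12.3 for Ccl20 and 5524 for Cxcl5. The order over time is less firm than the elevation over untreated cells. The 3 treated replicates at 5 h spanned 1.92, 3.34, 2.55, 3.28 and 1.63 on the log2 scale, and only for Cxcl1 (range over time 2.53) and Cxcl2 (4.27) did the course exceed this. Cxcl1, Cxcl2 and Cxcl3 are related in sequence, and reads could be split between them.

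The promoters of Cxcl1, Cxcl2, Cxcl3 and Ccl20 held an NF-kB motif, as did those of Nfkbia and Il6. They are shown because the Cxcl1 and Cxcl2 windows share the same motif letters while the courses of the genes differed. The motif occurred in 4.51% of all promoters, in 62.5% of 16 promoters of the NF-kB list and in all 4 promoters of the chemokine list that were in the table. It was in 14.3% of 14 cytokine promoters, and the windows of Tnf, Csf2 and Sele did not hold its letters. Capitals mark the motif. The windows are Cxcl1 (chr5:90891154-90891203, plus strand), Cxcl2 (chr5:90903782-90903831, plus strand), Cxcl3 (chr5:90786008-90786057, plus strand), Ccl20 (chr1:83116666-83116715, plus strand), Nfkbia (chr12:55492648-55492696, minus strand) and Il6 (chr5:30013050-30013099, plus strand).
Cxcl1: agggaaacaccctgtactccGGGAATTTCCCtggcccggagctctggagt
Cxcl2: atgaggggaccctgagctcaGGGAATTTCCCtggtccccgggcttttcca
Cxcl3: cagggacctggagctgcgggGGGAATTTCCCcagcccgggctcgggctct
Ccl20: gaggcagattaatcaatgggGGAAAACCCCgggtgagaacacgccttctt
Nfkbia: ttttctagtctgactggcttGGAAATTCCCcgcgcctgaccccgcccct
Il6: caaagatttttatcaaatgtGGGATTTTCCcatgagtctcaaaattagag

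Cytokines followed the same direction. Of 15 measured genes 9 were in the 1 h wave and 2 in the 5 h wave. At 24 h 10 were lower by more than 1 than at 1 h, with a list median of -2.43 (untreated -1.08). Untreated cells had 10 of the genes in their 1 h wave. From 1 to 5 h the list median was -0.70 with AMG and -1.27 without, the latter with the untreated 5 h library. The SD of the list median over the treated 5 h replicates was 0.92. Lif, a cytokine of the interleukin 6 family, was at 18520.2, 5141, 4485 and 2935 and untreated cells reached only 217. Il6 was at 3262, 746, 740.5 and 393, Il1a, an alarmin, at 1061, 353, 397 and 384 and Tnf at 285, 18.6, 11.4 and 12.6. Their untreated maxima were 31.6, 9.67 and 3.52. Il11 and Tnfsf11, which encodes RANKL, declined mainly after 5 h, with 7136, 5374, 1709 and 661 and 3319, 2046, 134 and 112. Csf3, the granulocyte growth factor, stayed at 226, 208, 185 and 172, a range of 0.39 that was smaller than the 1.71 between 5 h replicates, and Tslp was at 2589, 5207, 5053 and 2132. Among the remaining chemokines, Cxcl14 went from 19899 at 1 h to 1209 at 24 h, while untreated cells kept 12403 to 27794. The 5 h replicates spanned 5.66 for this gene, more than its range over time of 4.04.

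Of 14 measured genes of ERK feedback, among them the transcription factors Etv4 and Etv5, 11 were in the 1 h wave. The list median was -1.07 from 1 to 5 h and -1.68 from 1 to 24 h. In untreated cells these medians were -0.98 and -0.90, with 8 genes in the 1 h wave. From 1 to 5 h, 7 genes were lower by more than 1 in either arm. Dusp5, a phosphatase of nuclear ERK, was at 14554, 2607, 1456 and 739, Spry2, which restrains receptor signalling, at 7837, 3039, 1591 and 1168 and Errfi1, an inhibitor of the EGF receptor, at 37791, 9946, 5195 and 5743. Untreated values at 1 h were 2510.2, 2162 and 13916. All 3 were thus highest at 1 h in both arms and higher with AMG. The 8 ligands of the EGF receptor family, among them Nrg1, a ligand of other members of that family, were divided, with 3 in the 1 h wave, 3 in the 5 h wave and 1 in the 12 h wave. Areg was at 1228, 234, 78.1 and 29.7, Hbegf at 27176, 10746, 5015 and 1921 and Btc at 202, 512, 40.0 and 35.1, so that Btc came later than the other two. Ptgs2, the inducible cyclooxygenase of prostaglandin synthesis, was at 70488, 27298, 29548 and 18582, and Hpgd, which breaks prostaglandins down, at 143, 3.09, 8.58 and 13.5. Ptgs1, the constitutive cyclooxygenase, was higher at every later time, with 1393, 2671, 4549.5 and 5790.2. Among factors that destabilise cytokine mRNAs, 3 of 5 were in the 1 h wave, and Zfp36, or tristetraprolin, was at 5204, 1659, 720.5 and 870.4.

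Genes of cholesterol synthesis and uptake formed the list most uniformly lower after 1 h. Of 21 genes 19 were in the 1 h wave and 2 in the 5 h wave, 13 were lower by more than 1 at 5 h than at 1 h, 17 at 12 h than at 5 h, and all 21 at 24 h than at 1 h. The median differences were -1.04, -1.88, 0.45 and -2.71 from 1 to 5, 5 to 12, 12 to 24 and 1 to 24 h. Untreated cells had the same direction over the course, with 19 genes in the 1 h wave, but a smaller median from 5 to 12 h of -0.37 and from 1 to 24 h of -1.37. Idi1, an enzyme of isoprenoid synthesis, was at 9803, 3105, 144 and 221 with AMG and at 4315, 4194, 884 and 1068 without. Hmgcs1, which makes the precursor HMG-CoA (chromosome 13, 119690379 to 119708260, plus strand, GRCm38), was at 9404, 1498, 520.3 and 793 with AMG and 7714, 1489.9, 1946 and 2319.6 without. The lowest treated level of each was at 12 h and lay below all untreated levels. Insig1, a sterol-regulated retention protein, was at 8981, 928, 258 and 501. For 20 of the 21 genes the range over time was larger than the range over the 5 h replicates, and the SD of the list median over these was 0.27. A sterol regulatory element with the letters TCACNCCAC was in 1.24% of all promoters and in 1 of 15 promoters of the list. It was not in the windows of Idi1, Insig1, Cyp51 and Msmo1, and the Hmgcs1 window (chr13:119690194-119690242, plus strand, element in capitals) held it.
Hmgcs1: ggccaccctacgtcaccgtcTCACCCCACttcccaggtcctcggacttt

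Contractile and matrix genes were high for the first 5 h and lower later. Of 17 contractile and Srf target genes 11 were in the 1 h wave, none was more than 1 apart between 1 and 5 h, 9 were lower by more than 1 at 12 h than at 5 h, and the median from 5 to 12 h was -1.29 (untreated -0.42). Acta2, the smooth muscle actin of myofibroblasts, was at 127602, 99878, 37413 and 15379.6, Tagln at 125498, 79005, 30199.9 and 15439 and Cnn1, or calponin, at 22879, 14726, 3182 and 972. In untreated cells Acta2 was at 122294, 113295, 84107 and 62221, so the decline was present there with a smaller size. All 12 wave genes of the list had a larger range than the 5 h replicates, against 85.8% of all wave genes. The SD of the list median was 0.07. Among matricellular and elastic fibre genes 7 of 15 were in the 1 h wave and 5 in the 5 h wave, with a median of -1.27 from 1 to 24 h (untreated -0.28). Ctgf, a secreted growth factor binding protein, was at 58962, 39516, 14027 and 10140.3. Eln, which encodes elastin, was at 66.1, 43.3, 3.81 and 0 with AMG, at least 24.5-fold higher at 1 h than at 24 h, where it had no read, and at 105, 123, 154 and 128 without. The 5 h replicates of Eln spanned 2.52 on the log2 scale, against a range of 6.07 over time.

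Collagen chains were more often in the 5 h than in the 1 h wave. Of 20 genes 9 were in the 5 h wave, which held 8.91% of all genes, 4 in the 1 h wave and 1 in the 24 h wave. The medians were 0.40 from 1 to 5 h, -0.31 from 5 to 12 h and -0.78 from 12 to 24 h. With transcript length taken into account the 1 h and 5 h waves held 6 and 7 of the genes and the median from 1 to 5 h was 0.06, so the upward step was not seen with that correction, whereas the later medians of -0.44 and -0.64 kept their direction. Untreated cells had -1.17 from 1 to 5 h, without that correction. This step includes the untreated 5 h library, in which longer transcripts tended to be lower, and the part of library composition in it was not tested. Col1a1, the main chain of fibrillar collagen, was at 71733, 106127, 68843 and 36187 and Col6a3, a chain of microfibrils, at 6868, 13924, 7846 and 3801. The protease inhibitor Timp3 was at 97330.4, 80309.9, 7097 and 4876 with AMG and at 95530.0, 55757, 34862 and 50031 without, and Timp1 at 66515, 46127, 26702 and 20063. Timp2 was level, with a range of 0.47. In the plasminogen system, Plau, the urokinase activator, was at 37228, 23986, 10685 and 4962. Serpinb2 declined last, with 15392, 17951, 8505 and 1455. Of 9 genes of this list 6 were lower by more than 1 at 24 h than at 1 h, and its 7 wave genes all exceeded the range of the 5 h replicates.

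**Figure D4:**
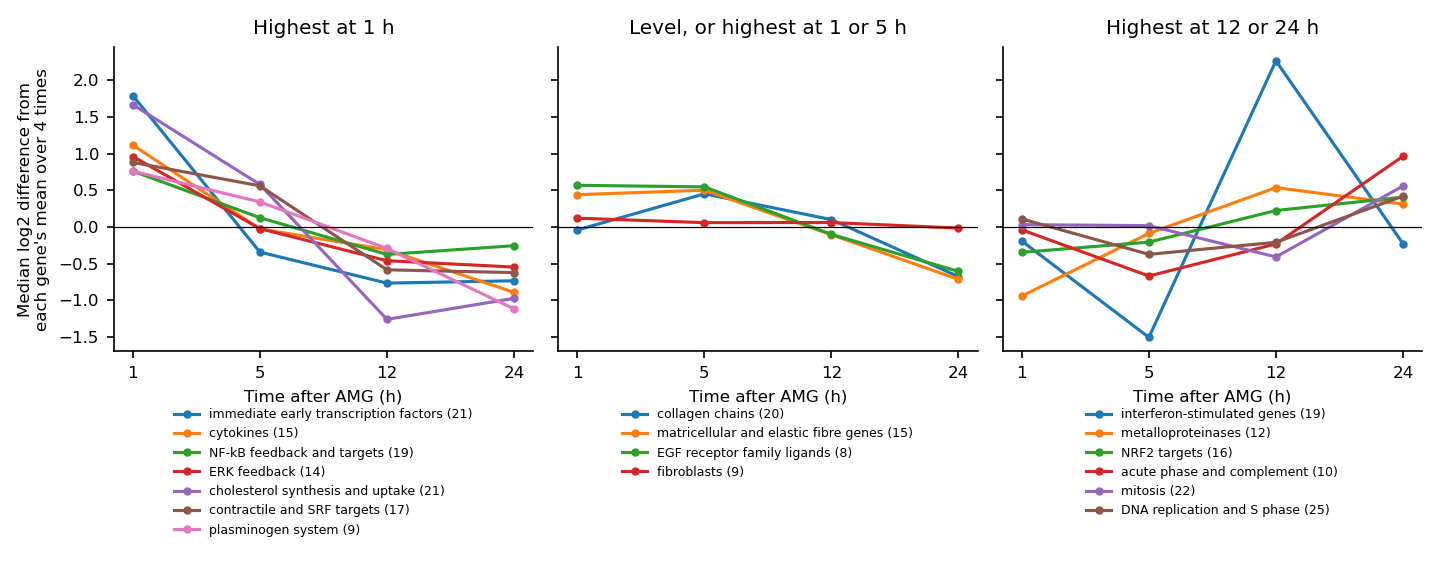
Median over the genes of a list (number of genes in brackets) of the log2 difference from each gene's mean over the 4 times (vertical axis), against time after AMG in h, with 1 library per time. Immediate early, cholesterol, contractile and plasminogen genes decline from 1 h, collagens and matricellular genes are highest at 5 h, interferon-stimulated genes at 12 h and acute phase genes at 24 h.

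The 5 h wave had fewer members and smaller leads than that at 1 h. Its 8 named genes were Dok3, Slc16a6, Krt34, Ager, Sh2d5, Afap1l2, Gper1 and Homer2. Slc16a6, a transporter of the monocarboxylate family (chromosome 11, 109450855 to 109473598, minus strand, GRCm38), was at 60.9, 414, 26.7 and 12.6 with AMG and at 59.8, 8.20, 15.4 and 6.89 without. Homer2, a scaffold protein of the synapse, was at 86.9, 586, 169.6 and 134, with untreated values up to 128. The adaptor protein Dok3 was at 26.1, 191, 23.8 and 11.7, and it was highest at 5 h in untreated cells as well, with 91.8. Krt34, a hair keratin, was at 57.4, 269, 0 and 0, at least 94.2-fold higher at 5 h than at 12 h, with no read at 12 or 24 h. The 5 h replicates of Krt34 spanned 4.02, more than its lead of 2.21 over 1 h. Gper1, a membrane receptor for estrogen, and Afap1l2, an actin-associated adaptor, were at 80.0, 351, 100.1 and 40.5 and 40.0, 166, 30.5 and 44.1. These genes were chosen for their leads, so setting a lead against the replicates is a description only. The lead at 5 h was larger than the range of the 5 h replicates for Dok3 (2.83 against 1.40), Slc16a6 (2.75 against 1.37), Ager and Sh2d5, and smaller for the other 4 genes.

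The 12 h wave was led by genes that interferon induces. Its 8 named genes were Ifit3, Iigp1, Ifit1, Usp18, Oasl2, Cmpk2, Phf11d and Trim30a. Of the 19 measured genes of the interferon list 17 were in the 12 h wave, against 10.8% of all genes, and 2 in the 1 h wave. From 1 to 5 h 11 of them were lower by more than 1, from 5 to 12 h 17 were higher, and from 12 to 24 h 16 were lower. The median differences were -1.64, 3.63 and -2.45. Ifit1, which binds foreign RNA (chromosome 19, 34640871 to 34650009, plus strand, GRCm38), was at 130.4, 28.6, 1743 and 172, and its neighbour Ifit3 at 76.5, 20.9, 1301 and 114. Usp18, which removes ISG15 from proteins and dampens the interferon receptor, was at 120.0, 35.6, 1170.3 and 69.3 and Iigp1, an interferon-induced GTPase, at 27.8, 3.87, 312 and 17.1. Rsad2, or viperin, was at 0, 0.774, 148 and 22.5, at least 28.3-fold higher at 12 h than at 1 h, where no read was found. Cxcl10, a chemokine induced by interferon, had the same course with 40.0, 17.0, 215 and 22.5.

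In untreated cells the same genes came later and lower. There 17 of the 19 genes were highest at 24 h, and the medians were 0.98 from 5 to 12 h and 0.83 from 12 to 24 h. Ifit1 was at 82.6, 32.8, 59.3 and 218, Ifit3 at 48.3, 16.4, 57.8 and 149 and Usp18 at 30.8, 18.0, 47.6 and 92.7 in untreated cells. At 12 h the treated library was above all 4 untreated ones for each of these 3 genes, and at 24 h it was below the untreated library of that time for Ifit1, Ifit3 and Usp18. The course over time exceeded the spread of the 5 h replicates for 18 of the 19 genes. This spread was large, with a range of 3.28 for Ifit1 and 3.13 for Ifit3 and an SD of 1.27 for the list median, and there was no second library at 12 h. The level at 12 h thus rests on 1 library.

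Promoters of the interferon list held an ISRE, taken as GAAA, any 2 bases and GAAA again on either strand, in 52.6% of 19 promoters. The share was 3.44% of all promoters, 5.49% of those of the 12 h wave and 12.6% of those of the 12 h wave with a range over 2. Among the named genes of the wave, Oasl2, Cmpk2 and Phf11d had no ISRE upstream of the start. Iigp1 and Usp18 had no promoter in the RefSeq set. The upstream sequence of Irf7, a gene of the interferon list, did not hold it either. Shown are Ifit3 (chr19:34583387-34583436, plus strand), Ifit1 with a pair of elements (chr19:34640765-34640814, plus strand), Trim30a (chr7:104465200-104465249, minus strand), Rsad2 (chr12:26456543-26456592, minus strand) and Isg15, the ubiquitin-like modifier, with overlapping elements (chr4:156200867-156200916, minus strand). The elements in capitals read on the opposite strand in all but Isg15.
Ifit3: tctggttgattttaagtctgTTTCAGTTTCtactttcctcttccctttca
Ifit1: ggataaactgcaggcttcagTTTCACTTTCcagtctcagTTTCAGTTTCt
Trim30a: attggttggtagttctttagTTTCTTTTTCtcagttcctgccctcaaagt
Rsad2: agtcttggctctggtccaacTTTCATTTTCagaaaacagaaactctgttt
Isg15: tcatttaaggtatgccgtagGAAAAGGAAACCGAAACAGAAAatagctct

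Most matrix metalloproteinases were higher at the later times. Of 12 measured genes 5 were in the 12 h wave, 2 in the 24 h wave and 1 in the 1 h wave. The list median was 0.89 from 1 to 5 h, 0.39 from 5 to 12 h and 0.03 from 12 to 24 h, while in untreated cells it was -0.13, -0.62 and -0.09. From 1 to 24 h 7 genes were higher by more than 1 and 1 was lower, against 16.0% and 16.7% of all genes. Mmp3, or stromelysin 1, was at 17282, 37018, 144047 and 171791 with AMG and at 4029.8, 6529, 2688 and 1278 without. Mmp13, the main interstitial collagenase of the mouse (chromosome 9, 7272514 to 7283331, plus strand, GRCm38), was at 4769.6, 15585, 42800.2 and 34312 with AMG and at 1162, 1260.5, 495 and 499 without. Mmp10, or stromelysin 2, was at 6402, 12627, 18594 and 14792 with AMG and at 804, 1095, 168 and 42.9 without. Mmp9, a gelatinase, was at 619, 1410.3, 2661 and 1868 with AMG and at 326, 103, 95.1 and 90.4 without. Thus the treated and the untreated courses of these 4 genes ran in opposite directions from 1 to 24 h. The members that cut basement membrane or activate other proteases at the cell surface, Mmp2 and Mmp14, were level, with ranges of 0.25 and 0.43. Mmp23 was highest at 1 h, with 4359, 2562, 1444 and 1519.

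The size of the metalloproteinase steps can be set against the 5 h replicates. Mmp13 (range over time 3.17, range over replicates 1.03), Mmp3 (3.31 and 1.34) and Mmp12 (2.30 and 2.00) exceeded them, whereas Mmp9 (2.10 and 3.39) and Mmp10 (1.54 and 1.70) did not. Mmp1a and Mmp1b are closely related neighbours whose reads may be split, and were at 62.6, 150.1, 176 and 158 and 104, 183, 386 and 227. From 12 to 24 h none of the 12 genes was more than 1 apart in either direction.

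The 3 measured genes of the list of late AP-1 members were all highest at 1 h in treated cells. Jund was in the 1 h wave, and Fosl1 and Fosl2 were in no wave. The range of Jund over time did not exceed that over the 5 h replicates. With transcript length taken into account, none of the 3 genes was in a wave. Fosl1, which encodes Fra-1, was at 4587, 4537, 3404 and 3539 with AMG and at 3079, 1498, 1297 and 1266 without. Its range with AMG was 0.43 and that over the 5 h replicates 0.39, and all 4 treated levels were above every untreated level. Fosl2 was at 6215, 4922, 5081 and 5242 and Jund at 3009.9, 1762, 1227 and 1482. The AP-1 letters TGANTCA were in 7.81% of all promoters and in 54.5% of 11 metalloproteinase promoters. The letters were also in 62.5% of 8 promoters of the plasminogen system and in 35.7% of 14 cytokine promoters, both lists whose median level declined from 1 h. They are shown in capitals for the 6 members clustered on chromosome 9, because these genes are neighbours, namely Mmp13 (chr9:7272459-7272505, plus strand), Mmp12 (chr9:7347310-7347356, plus strand), Mmp1b (chr9:7388093-7388139, minus strand), Mmp3 (chr9:7445756-7445802, plus strand), Mmp1a (chr9:7464048-7464094, plus strand) and Mmp10 (chr9:7502259-7502305, plus strand).
Mmp13: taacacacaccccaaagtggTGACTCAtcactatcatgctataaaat
Mmp12: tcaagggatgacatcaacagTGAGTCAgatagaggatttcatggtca
Mmp1b: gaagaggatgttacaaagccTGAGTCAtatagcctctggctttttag
Mmp3: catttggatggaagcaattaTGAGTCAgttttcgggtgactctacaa
Mmp1a: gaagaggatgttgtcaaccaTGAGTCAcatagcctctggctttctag
Mmp10: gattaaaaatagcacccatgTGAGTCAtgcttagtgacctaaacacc

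Targets of NRF2, the factor of the antioxidant response, were in part higher with time in the treated cells. Of 16 genes 5 were in the 12 h wave, 4 in the 24 h wave, 1 in the 5 h wave and 1 in the 1 h wave, and 8 were higher by more than 1 at 24 h than at 1 h, against 2 lower. The list median was 1.02 from 1 to 24 h, with -0.55 in untreated cells. Nqo1, a quinone reductase, was at 5703, 8766, 19918 and 18119 with AMG and at 3510.4, 7784, 4307 and 1898 without. Slc7a11, the cystine transporter, was at 115, 487, 579 and 581, the drug exporter Abcc1 at 2645, 6765, 9407 and 7518 and Slc48a1, a heme transporter, at 3281, 4212, 7549.5 and 10379. All 11 wave genes exceeded the range of the 5 h replicates, for example Nqo1 with 1.80 against 0.30. Slc40a1, or ferroportin, the exporter of iron, was at 3.48, 19.3, 181 and 186 in treated and 9.67, 11.5, 11.7 and 9.19 in untreated cells. Its treated value at 1 h came from 2 reads, below the floor of 3 reads, so its range is uncertain. Metallothioneins went the other way and were highest at 1 h, with 5190.4, 3972, 1076 and 2621 for Mt1 and 10591, 8741, 2532 and 4602 for Mt2. The ranges of Mt1 (2.27) and Mt2 (2.06) were close to those of the 5 h replicates (2.13 and 2.19).

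The 24 h wave was led by Steap4, Saa3, Itgb7, Gpr149, Hp, Prl2c2, Nos2 and Lcn2. Saa3, an acute phase apolipoprotein (chromosome 7, 46711998 to 46715700, minus strand, GRCm38), was at 1306, 597, 3126 and 21680.2 with AMG, and it was 6.94-fold higher at 24 h than at 12 h. In untreated cells it was at 342, 1695, 278 and 188, lowest at 24 h. Lcn2, which binds bacterial iron carriers, was at 109.5, 73.5, 398 and 1545 and Hp, or haptoglobin, at 34.8, 21.7, 34.3 and 185. Steap4, a metalloreductase, was at 81.7, 62.7, 193 and 1396. Untreated values at 24 h were 36.0, 14.6 and 168, so Steap4 alone of these 3 was also highest at 24 h without AMG. Nos2, the inducible nitric oxide synthase, stood out for its steady course, with 36.5, 225, 935 and 3745 in treated cells and at most 7.91 in untreated ones. It was 103-fold higher at 24 h than at 1 h. The integrin chain Itgb7 was at 3.48, 20.1, 40.0 and 274 and the proliferin gene Prl2c2 at 122, 78.9, 297 and 1293. As a description, since these genes were chosen for their leads too, the lead at 24 h exceeded the range of the 5 h replicates for Saa3 (2.79 against 0.98), Lcn2 (1.95 against 0.40), Itgb7, Hp, Steap4 and Nos2, but not for Gpr149 and Prl2c2. Prl2c2 belongs to a family of near-identical genes, so its reads may be split.

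**Figure D5:**
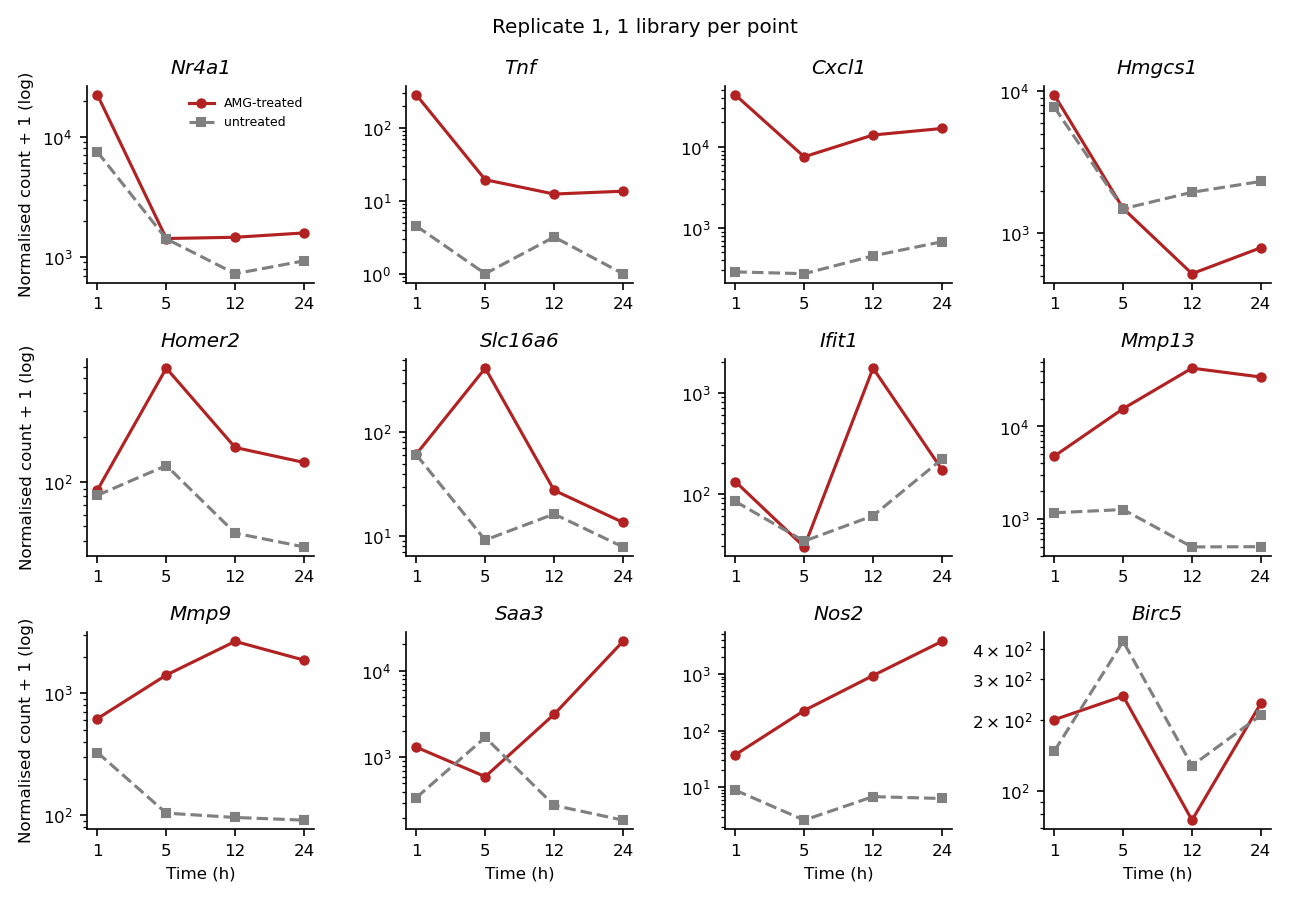
Courses of 12 genes over time (h) as normalised counts + 1 on a log axis, each point 1 library of replicate 1, red circles for AMG-treated and grey squares for untreated cells. Nr4a1 and Tnf are highest at 1 h, Homer2 and Slc16a6 at 5 h, Ifit1 and Mmp13 at 12 h, and Saa3 and Nos2 at 24 h in treated cells.

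Acute phase and complement genes were represented by 10 of 16 listed genes, the other 6 falling below the limit of 10. Of the 10, 5 were in the 24 h wave, 2 in the 1 h wave and 1 in the 5 h wave. From 12 to 24 h 5 were higher by more than 1 and none was lower, where 2.86% of all genes were higher. The median of this step was 1.02, and -0.03 in untreated cells. Cp, or ceruloplasmin, was at 231, 241, 871 and 1662 and its range of 2.84 exceeded the 1.79 of the 5 h replicates. C/EBP factors are known activators of Saa3, Lcn2 and Hp. Their letters TTNNGCAA were in 10.8% of all promoters and in 63.6% of 11 promoters of the list. They were in 9.48% of the promoters of the 24 h wave and in 10.5% of those with a range over 2, neither above the share of all promoters. Hp had no promoter in the RefSeq set. The Saa3 window (chr7:46715748-46715795, minus strand) and the Lcn2 window (chr2:32387928-32387975, minus strand, on the opposite orientation) are printed with the letters in capitals.
Saa3: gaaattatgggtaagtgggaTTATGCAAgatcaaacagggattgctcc
Lcn2: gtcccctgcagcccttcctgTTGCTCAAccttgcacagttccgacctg

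The median level of mitosis genes was lowest at 12 h, although only 12 of the 22 genes had their lowest value there. Of the 22 mitosis genes 11 were in the 24 h wave, 6 were lower by more than 1 at 12 h than at 5 h and 10 were higher at 24 h than at 12 h, with medians of -0.61 and 0.91. Mki67, a marker of cycling cells, was at 146, 214, 59.1 and 254, Birc5, or survivin, at 199.96, 252, 74.3 and 235 and the spindle motor Kif11 at 92.2, 86.6, 39.1 and 181. Untreated cells had 13 mitosis genes in the 24 h wave, with a median of 0.52 from 12 to 24 h, and Birc5 at 147, 431, 127 and 209. Of 25 genes of DNA replication 9 were in the 24 h wave and 5 in the 1 h wave, with a median of 0.59 from 12 to 24 h. Ccne2, the cyclin E2 of the entry into S phase, was at 216, 32.5, 66.7 and 144 and Cdc6, a licensing factor, at 24.3, 44.9, 31.4 and 95.4. All 14 wave genes of this list exceeded the range of the 5 h replicates, and 11 of 15 did for mitosis, against 85.8% of all wave genes. Btg2, an antiproliferative factor, was at 21323, 4297, 1747 and 1687, in the 1 h wave.

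Genes were also named for a low point. At 1 h the lowest were Pdzd2, Irs1, Akap17b and Nup210l. Irs1, the docking protein of the insulin receptor, was at 29.6, 962, 1062 and 808 with AMG and at 299, 569, 1119.7 and 1211 without, and its 5 h replicates spanned only 0.85. At 5 h Oasl1, Ifit1 and Ypel4 were among them. At 12 h Ddx4, Pbk, Scx and Hlf were named. Scx, the tendon transcription factor scleraxis, was at 263, 65.0, 12.4 and 49.5, and Pbk, a mitotic kinase, at 92.2, 86.6, 16.2 and 103. At 24 h the genes were Aldh1a3, Apol8, Egr4 and Krt84. Aldh1a3, an enzyme of retinoic acid synthesis, was at 12939, 22822, 3516 and 276 with AMG and at 12629.9, 6974, 2466 and 2938 without, and thus fell below every untreated level at 24 h. The range of Aldh1a3 over time, 6.36, exceeded the 2.71 of the 5 h replicates. The hair keratin Krt84 was at 170.4, 312, 6.67 and 0, with no read at 24 h.

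Lists of cellular stress had small medians, and they differed in their share in the 1 h wave, which held 19.8% of all genes. In the unfolded protein response 3 of 13 genes were in the 1 h wave, close to the share over all genes. Its median was -0.57 from 1 to 24 h (untreated -0.16). Dnajb9, a chaperone of the endoplasmic reticulum, was at 1798, 522, 970.1 and 597. In the integrated stress response 6 of 12 genes were in the 1 h wave, 5 were lower by more than 1 at 24 h than at 1 h, the median of this step was -0.55, and Atf4, its central factor, was at 9974, 8947, 4888 and 3905. Of 12 heat shock chaperones 6 were in the 1 h wave, with a median of -0.57, and the co-chaperone Dnajb1 was at 4756, 1409.5, 1045 and 1241. Of 9 hyaluronan genes 3 were in the 1 h wave, 2 in the 12 h wave and 1 in the 24 h wave. In untreated cells 7 were in the 1 h wave. The list median from 1 to 5 h was -0.09 with AMG and -1.57 without. The untreated step includes the 5 h library rich in ribosomal protein reads, and the part of library composition in it was not tested. Has1 and Has2, the synthases, were at 836, 79.7, 29.5 and 54.0 and 9473, 6012, 2393 and 1085.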

How the data were processed

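RNA was sequenced from scratched mouse tail fibroblasts with poly(A) selected stranded libraries. The submitters' processing notes name FastQC 0.11.5, TopHat2 2.0.13, SAMtools 0.1.19.24, HTSeq 0.5.3p3 and DESeq with build mm10. Which annotation and strand setting HTSeq used is not given in the sources used here, which leaves overlapping and antisense genes uncertain. The values are a normalised signal: read counts were scaled with size factors by the authors, once for the deposited table of replicate 1 and once for that of replicates 2 to 4. Levels were therefore not compared across tables. Divided by the value of 1 read, 100% of values were whole within 0.1, which gave reads, depth and floors. Reads carry no molecular identifiers, so floors cover counting error only.

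Groups came from sample titles. With 1 library per time, genes were compared without a test on log2(value + 1), with a minimum mean of 10 and a difference of more than 1. Named genes were, among those with a mean of at least 50, the 8 per wave with the largest lead and the 4 per time with the deepest low, without unnamed models, pseudogenes, ribosomal protein and mitochondrial genes, all members of 5 lists (immediate early factors, late AP-1 members, neutrophil chemokines, cytokines, metalloproteinases) and up to 4 members of each other list with the widest range. Isg15, Birc5 and Hmgcs1 fall outside this rule and were chosen after their values were seen. Some genes that the rule named are not reported here. Members and lists were chosen with earlier results of these data known. Positions and transcript lengths came from GENCODE M21 (GRCm38), promoters from RefSeq (GRCm38.p6), which matched 9867 of 13457 genes (73.3%). Python 3.11.15, pandas 2.3.3, R 4.3.3 and edgeR 4.0.16 (TMM factors) were used, and the scripts were tested on simulated data. Alternatives were a pseudocount of 0.1 or 10, a gene limit of above 0 or of a mean of 50, a difference of more than 2, upper quartile and TMM rescaling, a length correction over 20 bins, and each 5 h replicate left out.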

Additional observations from a re-analysis of the deposited data

Results flagged for a closer look

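For 4 gene lists the treated and the untreated courses moved in opposite directions over the same step, and these differences were not tested, since each point was 1 library. Interferon-stimulated genes had a median log2 difference of -2.45 from 12 to 24 h with AMG and of 0.83 without. NRF2 targets had 0.53 from 5 to 12 h with AMG and -0.54 without. The list of iron storage genes and metallothioneins had a median of -0.54 from 1 to 5 h with AMG and of 1.07 without, and genes of the BMP response had -0.60 against 0.97 over the same step. The SD of the list median over the treated 5 h replicates was 1.27, 0.20, 1.11 and 0.23 for these 4 lists, so the treated step of the iron list was smaller than this spread. The 5 h untreated library of replicate 1 gave 7.003% of its reads to ribosomal protein genes and the 1 h treated library 5.10%, and both steps from 1 to 5 h include them. Steps from 5 to 12 h include the former library as well. With the length correction the treated medians were -0.26 for the iron list and -0.44 for the BMP list. The part of library composition in the untreated medians was not tested.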

How the results depend on the processing

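Of 96 gene counts recomputed under the alternatives, 66 stayed within 1.5 times the value given above. The balance of higher and lower genes turned with the scaling. Counts moved where the choice sets them directly. With all genes above 0 in place of a mean of at least 10, genes higher and lower numbered 3527 and 2912 from 1 to 5 h, 2168 and 2876 from 5 to 12 h, 1669 and 1690 from 12 to 24 h, and 3863 and 4161 from 1 to 24 h, and the waves at 1, 5, 12 and 24 h held 4492, 2808, 2635 and 2724 genes. With a difference of more than 2, these counts were 308 and 206, 193 and 283, 45 and 94, and 523 and 630, and the waves held 749, 330, 392 and 374. A mean of at least 50 gave 673 and 643 from 5 to 12 h and 173 and 249 from 12 to 24 h. A pseudocount of 10 gave 215 and 271 from 12 to 24 h. Upper quartile rescaling gave 1447 higher and 1468 lower genes from 1 to 5 h. TMM rescaling moved the median of all genes by 0.088 on the log2 scale from 1 to 24 h, gave 2445 higher and 2008 lower genes over that step and 1092 and 1014 from 5 to 12 h, and gave waves of 2282, 1281, 1669 and 1536 genes. With the length correction the waves held 2274, 1156, 1234 and 1395 genes, and 69.8%, 80.4%, 68.4% and 83.9% of the genes of each wave remained in it. Of 1000 recomputed list medians 951 moved by less than the spread over the 5 h replicates, and none that exceeded 1 changed sign. Of 336 values of named genes 318 moved by less than that spread. Among the 336, the 48 under a gene limit of above 0 and the 48 under a mean of 50 were fixed in advance. Those settings changed only which genes were taken up, and the named genes had a mean of at least 50.

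The mean share of genes more than 1 apart between treated 5 h replicates was 14.5%, and ranged from 7.86% without AMG-treated 5h replicate 3 to 18.1% without AMG-treated 5h replicate 4. No paired analysis was possible because the 4 times were 1 library each and no result came from a test. The shallowest library, that at 1 h, limits statements on genes near its floor of 5.22 normalised counts, and a gene at 0 there may have been present below it.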

Other observations

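Clock genes, which run the daily rhythm of transcription, had list medians of the same sign in both arms up to 12 h, with smaller steps in treated cells. They were -0.67 from 1 to 5 h and 0.67 from 5 to 12 h with AMG and -1.45 and 1.80 without. Both untreated steps include the 5 h library rich in ribosomal protein reads. Over all genes, these untreated steps had Spearman correlations with transcript length of -0.58 and 0.52. The part of library composition in the smaller treated steps was not tested. Of 17 genes 3 were in the 1 h wave, 1 in the 5 h, 4 in the 12 h and 5 in the 24 h wave, against 5, 0, 6 and 4 in untreated cells. Bhlhe40, a clock repressor that growth factors induce, was at 10113, 1177, 721 and 752 normalised counts with AMG at 1, 5, 12 and 24 h and at 3531, 569, 1825 and 1438 without. Dbp, an output factor of the clock, was at 80.0, 25.5, 90.5 and 203 with AMG and at 95.8, 34.4, 551 and 244 without, so it was highest at 24 h in treated and at 12 h in untreated cells. Npas2, a partner of Bmal1, was at 22.6, 3.09, 57.2 and 18.0 with AMG and at 15.8, 6.56, 41.7 and 49.8 without. The SD of log2 values over the treated 5 h replicates was 0.74 for Bhlhe40, 0.08 for Dbp and 0.46 for Npas2.

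Of 15 glycolysis genes 10 were in no wave, 2 were in the 1 h and 3 in the 24 h wave, and of 13 hypoxia genes 4 were in no wave, 5 in the 1 h, 1 in the 5 h and 3 in the 24 h wave. Hk2 and Slc2a1, which phosphorylate and import glucose, were at 5874, 1458, 1104 and 1091 and 14065, 5839, 3991 and 5409, and Vegfa, the vascular growth factor, at 24729, 9656, 5862 and 5981. Their highest level was at 1 h, as in untreated cells, where it was 2971, 10982 and 11350.2. Pfkl and Pfkm, subunits of phosphofructokinase, were at 2410.0, 2264, 1583 and 4663 and 826, 476, 883 and 1344, with untreated Pfkl at 3480.5, 2462, 2166 and 5161. Bnip3, a mitochondrial protein induced by low oxygen, was at 2346, 559, 577 and 2758 with AMG and at 1339, 1672, 1045 and 3093 without, highest at 24 h in both. The glycolysis list had a median of 0.60 from 12 to 24 h with AMG and of 0.29 without.

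Among BMP response genes, Id2, an inhibitor of transcription factor binding, was at 389, 78.1, 192 and 107 with AMG and at 307, 608, 302 and 329 without. Smad9, a receptor-regulated signal transducer, was at 8.69, 3.87, 102 and 42.3 with AMG and at 61.5, 85.2, 146 and 126 without, and the ligand Bmp2 at 1654, 1502, 255 and 149.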
